A study of Homo sapiens with 4 samples.

Results

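The genes described here are the 95 protein-coding genes with a symbol that starts with KCN, the prefix given to potassium channel subunits, among 57820 gene rows of the count table, of which 19404 were protein-coding. They were chosen by symbol alone. By prefix, 43 were voltage-gated (KCNA to KCND, KCNF to KCNH, KCNQ, KCNS and KCNV), 15 inward rectifiers (KCNJ), 15 two-pore channels (KCNK) and 11 calcium-activated (KCNM, KCNN and KCNT), and 11 stood outside these 4 classes (KCNE, KCNIP, KCNRG and KCNU1). The prefixes also bring in auxiliary subunits that form no pore: 3 KCNAB genes in the voltage-gated class, 4 KCNMB genes in the calcium-activated class and 10 of the 11 genes outside the classes.

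RNA was sequenced from confluent IMR-90 cells, a primary line of human fetal lung fibroblasts, with 2 libraries of the RB1 knockout (RB1 KO) and 2 of the wild-type genotype. The RB1 KO cells were a mixed population that had taken up a lentivirus with Cas9 and a guide at the RB1 translation start and had survived puromycin. Wild-type cells are not described as having received a virus or puromycin, so effects of these steps and of RB1 loss cannot be told apart. The first and second RB1 KO replicates had 33480111 and 34247292 gene counts, against 32827737 and 30873239 for the wild-type ones. Levels are given as CPM, the counts of a gene relative to the library total scaled to 1e6 and by TMM factors, which even out differences in composition between libraries. The RB1 transcript was at 85.3 and 79 CPM in RB1 KO and 76.5 and 75.2 CPM in wild-type libraries (log2 fold change 0.12, standard error 0.0723, adjusted p = 0.507). A small insertion or deletion at a start codon need not lower a transcript, so these values do not check the labels. In the paper, RB1 disruption was shown by a Western blot for RB1 protein, which was not measured here.

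Potassium channels let potassium leave or enter the cell along its gradient, and thereby set the resting potential and end electrical excitation. Voltage-gated channels open on depolarization, inward rectifiers pass current best near the resting potential, two-pore channels give a background leak, and calcium-activated channels respond to intracellular calcium or, for KCNT genes, to sodium. Fibroblasts are not excitable cells in the way of neurons and heart muscle, but they hold a negative resting potential and are known to carry several potassium currents.

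All pore-forming subunits share the selectivity filter, the short stretch that sorts potassium from sodium. A script searched the coding sequence of each gene's canonical transcript (GENCODE on GRCh37) for codons of threonine, any residue, glycine, then tyrosine, phenylalanine or leucine, and glycine. A voltage-gated or inward rectifier subunit carries 1 filter and a tetramer makes the pore, whereas a two-pore subunit carries a pair of filters. The search found 1 site in 33 of 40 pore-forming voltage-gated genes and 14 of 15 inward rectifiers, 2 sites in 13 of 15 two-pore genes and 1 in the other two, and 0 sites in the 17 auxiliary genes. Genes without a match, such as KCNH1, KCNH2 and KCNN2, only lack these letters. The windows below are coding sequence from 5′ to 3′ for some of the pore-forming members on which the comparison turned, with the 5 matched codons in capitals.
KCND3: accatgaccACACTGGGATACGGAgacatg
KCNC4: accatgacgACACTGGGCTACGGAgacatg
KCNA3: accatgacaACAGTGGGTTACGGCgatatg
KCNJ2: acccagacaACCATAGGCTATGGTttcaga
KCNMA1: acaatgtccACCGTTGGTTATGGGgatgtt
KCNK6, site 1: ctgatcaccACCGTGGGCTATGGGtacaca
KCNK6, site 2: tctctgtccACCATCGGCCTGGGCgactac

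On GRCh37, the window of KCND3 lies at chr1:112329716-112524259 on the minus strand and is split by an intron. That of KCNC4 is at chr1:110766204-110766233 on the plus strand and that of KCNA3 at chr1:111216082-111216111 on the minus strand. The 3 voltage-gated windows shown are thus on the same chromosome, while that of KCND2 is on chromosome 7 and is not shown. The window of KCNJ2 is at chr17:68171595-68171624 (plus strand) and that of KCNMA1 at chr10:78869988-78870017 (minus strand). In KCNK6, on the plus strand, the first site is split by an intron at chr19:38810897-38817246 and ends in a tyrosine codon before the last glycine, whereas the second, at chr19:38817541-38817570, holds leucine in that place.

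Most members had few or no reads in these fibroblasts. Of the 95 genes, 25 had 0 counts in every library, 34 had between 1 and 32 counts in all 4 libraries together and fell under the filter on low counts, and 36 were tested. In a single library the limit that 0 counts allows, taken as 3 counts, was 0.0901 to 0.0943 CPM. The tested genes were 16 of 43 voltage-gated, 5 of 15 inward rectifier, 4 of 15 two-pore, 5 of 11 calcium-activated and 6 of 11 other members, and 25 of them had a mean of at least 1 CPM. This limit covers counting error only.

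Levels of different genes were compared per kilobase of transcript. With the length of the canonical transcript, KCNE4 (an auxiliary subunit known to dampen KCNQ1 and KCNA currents) was highest, with a mean of 9.28 CPM per kilobase over the 4 libraries. It was followed by KCNJ2 at 7.57, KCNH2 at 7.33, KCNMA1 at 6.63 and KCNF1 at 4.27 CPM per kilobase. The libraries of KCNE4 (7.62 to 10.9), KCNJ2 (6.80 to 8.34), KCNH2 (6.91 to 7.93) and KCNMA1 (5.32 to 9.05 CPM per kilobase) overlapped, so that the order of these 4 genes was not separated from the spread, while KCNF1 (3.41 to 4.70) lay below all of them. The first 4 genes held 51.5% to 53.4% of the summed level of all members in a library. With the union of all annotated exons as length, the first 4 were KCNJ2, KCNE4, KCNH2 and KCNF1, and KCNMA1, whose exons add up to 39437 bases against 6261 in its canonical transcript, fell to place 9 with 1.05 CPM per kilobase.

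**Figure D1:**
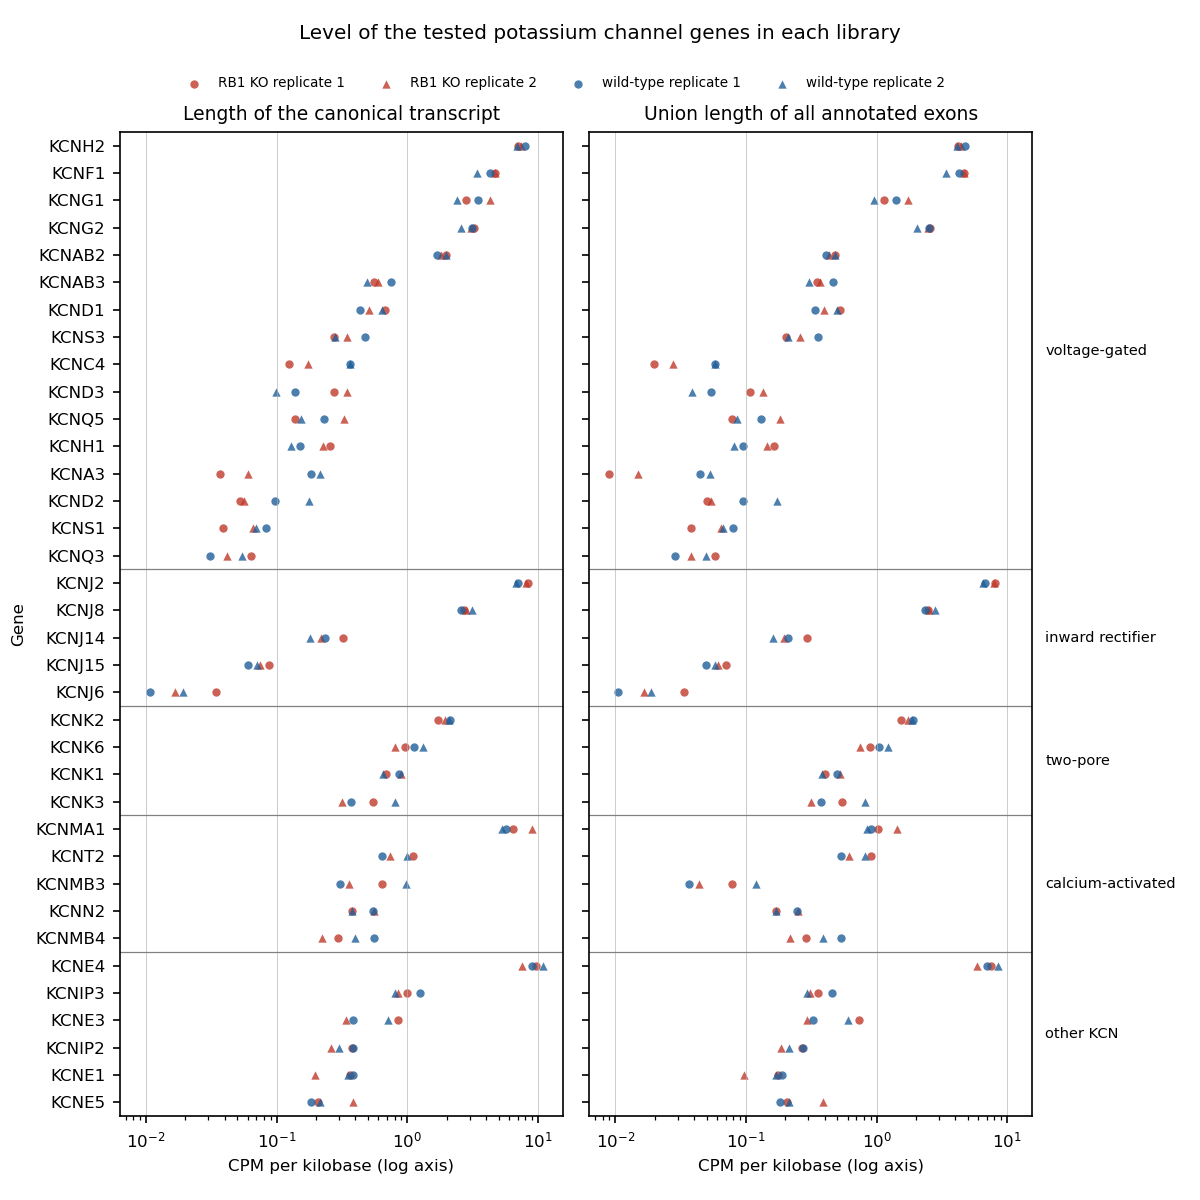
Level of the 36 tested potassium channel genes in each of the 4 libraries, in CPM per kilobase on a log axis, by class and within a class by the mean with the canonical transcript length (left) or, for the same genes, the union of exons (right). Circles are replicate 1 and triangles replicate 2, red for RB1 KO and blue for wild-type. KCNE4, KCNJ2, KCNH2 and KCNMA1 lie highest on the left, and KCNMA1 drops to a mean of 1.05 CPM per kilobase on the right.

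Summed over classes with the canonical length, voltage-gated genes were at 22.5 and 24.2 CPM per kilobase in RB1 KO and 23.6 and 20.2 in wild-type libraries. Inward rectifiers were at 11.5 and 11.3 in RB1 KO against 9.96 and 10.2 CPM per kilobase in wild-type, nearly all of it from KCNJ2 and KCNJ8. Two-pore genes were at 4.10 and 4.09 in RB1 KO against 4.53 and 5.06 CPM per kilobase in wild-type. Calcium-activated genes were at 8.85 and 11.0 in RB1 KO against 7.79 and 8.10 CPM per kilobase in wild-type. The sums of inward rectifier and calcium-activated genes were thus higher in both RB1 KO libraries than in both wild-type libraries. Those of two-pore genes were lower, and the groups overlapped in the voltage-gated sum. These sums were not tested, and 46.8% of all single genes tested had groups without overlap. KCNMA1 made up most of the calcium-activated sum, with a mean of 7.74 of 9.92 CPM per kilobase in RB1 KO and 5.52 of 7.94 in wild-type. The sum over all members was 60.0 ± 0.399 CPM per kilobase in RB1 KO and 57.2 ± 0.394 in wild-type (SD, n = 2). With the union of exons as length, it was 41.3 and 39.6 in RB1 KO against 39.2 and 39.3 CPM per kilobase in wild-type libraries. The means were then 40.4 ± 1.24 and 39.3 ± 0.0764, and the difference was not tested.

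The comparison of RB1 KO with wild-type was made by edgeR's quasi-likelihood test on all 16426 genes with enough counts, with Benjamini-Hochberg adjustment over all of them and a call at an adjusted p under 0.1. It called 1 of 36 tested members higher (2.78%), KCND3, where 1.99% of all tested genes were called higher. It called 0 members lower, against 0.907% of all tested genes, while 5 were lower at an unadjusted p under 0.05. DESeq2 and limma-voom also called 0 lower, but DESeq2 gave no adjusted p to KCNA3 and KCND2, which are among those 5, and so could not call them. At an unadjusted p under 0.05, 9 of 36 members (25%) differed, 4 higher and 5 lower, beside 15.3% of all tested genes. The 2 groups of libraries did not overlap in 13 members (36.1%), beside 46.8% of all tested genes. A fit with a library left out has 1 library in a group and cannot measure the spread of that group. Its p-values take that spread from the other group. The number of calls depended on single libraries: without RB1 KO replicate 1 it was 3 higher and 3 lower, without RB1 KO replicate 2 it was 1 and 1, without wild-type replicate 1 it was 1 and 0, and without wild-type replicate 2 it was 0 and 0.

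The tested members had a median log2 fold change of 0.026, against -0.01 over all genes, with 19 above and 17 below 0. The class medians were 0.088 for voltage-gated, 0.30 for inward rectifier, -0.33 for two-pore and 0.014 for calcium-activated genes, and -0.13 for those outside the classes. Without wild-type replicate 2 the median of the calcium-activated genes was 0.44. Standard errors ran from 0.0774 for KCNJ2 to 0.57 for KCNMB3, with a median of 0.283. Whether replicates were separate cultures is not given in the labels, and the p-values therefore measure library-to-library spread that may be technical. In this bulk RNA, fewer cells that express a channel and less RNA per cell cannot be told apart.

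**Figure D2:**
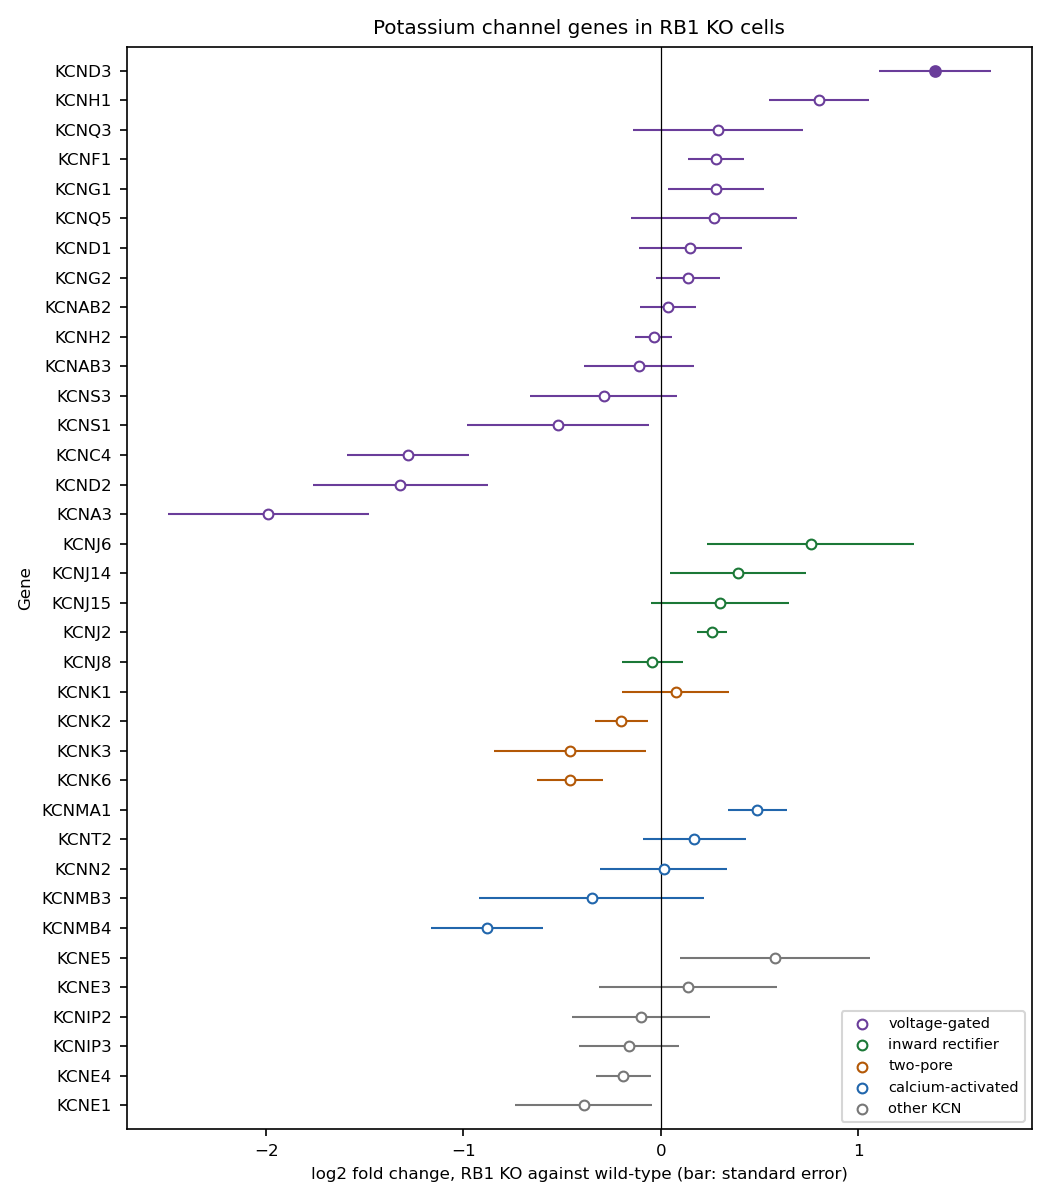
Log2 fold change of RB1 KO against wild-type for the 36 tested potassium channel genes, ordered by size within each class (colours), with the standard error as a bar. The filled point, KCND3 at 1.39, is the member called at an adjusted p under 0.1, and the open points did not pass.

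Among voltage-gated genes, KCND3 rose in RB1 KO cells. It encodes a pore-forming subunit of the rapidly inactivating A-type current, known from heart muscle and neurons. KCND3 had 69 and 88 counts in RB1 KO and 35 and 24 counts in wild-type libraries, or 2.10 and 2.64 against 1.05 and 0.754 CPM. Both RB1 KO libraries were above both wild-type libraries, and the mean was 2.62-fold higher (log2 fold change 1.39, standard error 0.283, adjusted p = 0.0706). It passed in DESeq2 (adjusted p = 0.0554) but not with a block for the replicate number. Without wild-type replicate 2, the lowest library, the log2 fold change was 1.17 and no longer passed (adjusted p = 0.126). The gene was at a low level throughout, at 0.215 CPM per kilobase of canonical transcript, place 28 among all members.

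KCND3 overlaps the 3′ part of DDX20, an RNA helicase gene on the opposite strand, which had 25.3 and 25.6 CPM in RB1 KO and 23.5 and 24.5 CPM in wild-type libraries (log2 fold change 0.084, adjusted p = 0.7). The antisense gene KCND3-AS1 and the intronic KCND3-IT1 had 0 counts in all libraries. The libraries were directional, but which strand was counted is not given in the sources used here.

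The other KCND genes did not pass. KCND2, which carries A-type current in neuronal dendrites, had 10 and 11 counts in RB1 KO against 19 and 33 counts in wild-type libraries (log2 fold change -1.32, standard error 0.442, adjusted p = 0.208). Its libraries were ordered the opposite way to those of KCND3. KCND1 had 3.20 and 2.40 CPM in RB1 KO and 2.04 and 3.02 CPM in wild-type libraries, with overlapping groups. KCNIP3, a calcium-binding protein that joins KCND channels, had 2.86 and 2.46 CPM in RB1 KO and 3.61 and 2.33 CPM in wild-type libraries. DPP6 and DPP10, the membrane partners of KCND channels, had at most 1 count in any library.

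KCNC4, a rapidly activating channel of the Shaw-related family that opens at strong depolarization, lay closest to a call among the lower genes. It had 17 and 24 counts in RB1 KO against 50 and 48 counts in wild-type libraries, or 0.518 and 0.721 against 1.5 and 1.51 CPM. The wild-type libraries were nearly alike and both more than double the RB1 KO libraries (fold size 2.42, log2 fold change -1.28, standard error 0.308, adjusted p = 0.107). It passed in some alternatives, such as a filter of at least 10 counts in every library (adjusted p = 0.086) or library totals as the only scaling (0.089). DESeq2 did not call it (adjusted p = 0.264). Without RB1 KO replicate 2 its log2 fold change was -1.53.

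KCNA3, best known as a potassium channel of T lymphocytes, had 3 and 5 counts in RB1 KO and 15 and 17 counts in wild-type libraries (log2 fold change -1.99, standard error 0.509, adjusted p = 0.12). Its groups did not overlap, and RB1 KO replicate 1 was at the limit of 3 counts. KCNA3 and KCND2 lie under 1 CPM and are named because of their values.

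KCNH1, an ether-à-go-go channel known from brain and from many tumours, had 69 and 62 counts in RB1 KO against 41 and 33 counts in wild-type libraries (log2 fold change 0.80, standard error 0.254, adjusted p = 0.191). Both RB1 KO libraries were higher. KCNH2, the channel of rapid cardiac repolarization, was 1 of the highest members and had 30.4 and 31.8 CPM in RB1 KO and 34.0 and 29.7 CPM in wild-type libraries. Its log2 fold change was -0.036 with a standard error of 0.095.

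**Figure D3:**
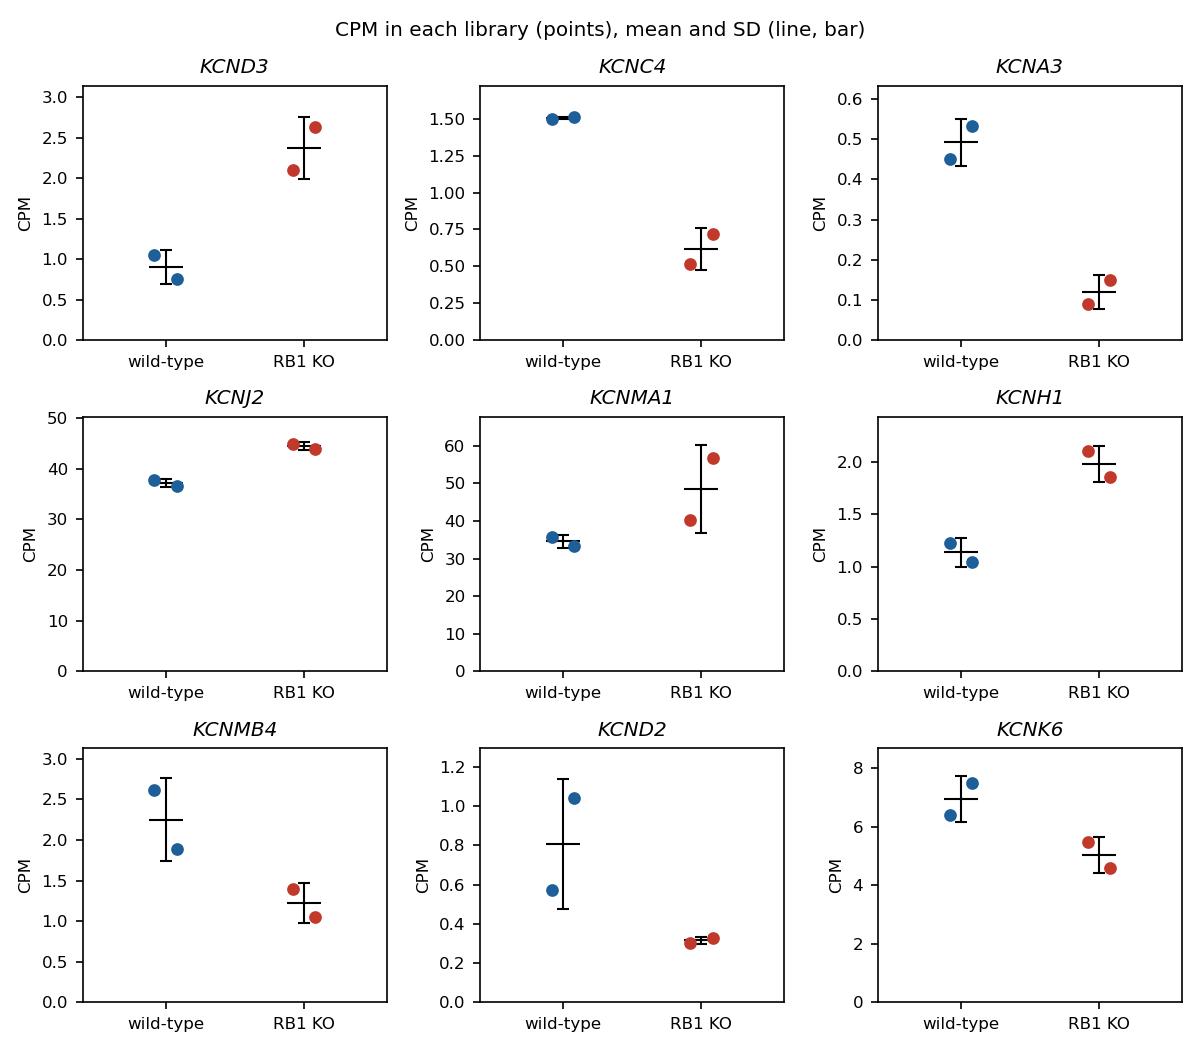
CPM in each library for the 9 potassium channel genes with an unadjusted p under 0.05, with wild-type on the left in blue and RB1 KO on the right in red, the mean as a line and the SD as a bar (n = 2). Each axis starts at 0 and has its own scale. KCND3, KCNJ2, KCNMA1 and KCNH1 are higher in both RB1 KO libraries, and KCNC4, KCNA3, KCNMB4, KCND2 and KCNK6 are lower.

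The electrically silent subunits KCNF1, KCNG1 and KCNG2 make no channel alone and are known to modify KCNB channels. KCNF1 had 10.8 and 10.7 CPM in RB1 KO and 9.85 and 7.83 CPM in wild-type libraries (log2 fold change 0.28, adjusted p = 0.412). KCNG1 had 6.15 and 9.43 CPM in RB1 KO and 7.60 and 5.22 CPM in wild-type libraries, with overlapping groups. Without RB1 KO replicate 1 it was at 0.56 and passed (adjusted p = 0.0814), and without RB1 KO replicate 2 at -0.058. KCNG2 had 6.06 and 5.80 CPM in RB1 KO and 5.92 and 4.84 CPM in wild-type libraries. KCNB2, a member of that partner family, had 0 counts in all libraries.

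Among the remaining voltage-gated members, the beta subunit KCNAB2, an oxidoreductase-like protein that binds KCNA channels, had 8.28 and 7.51 CPM in RB1 KO and 7.12 and 8.27 CPM in wild-type libraries. KCNAB3, of the same family, had 1.61 and 1.71 CPM in RB1 KO and 2.16 and 1.41 CPM in wild-type libraries. KCNQ5, a channel of the slow M-type current, had 29 and 69 counts in RB1 KO and 49 and 31 counts in wild-type libraries. The groups overlapped in each of these genes. The absent members include KCNA1, KCNA4, KCNA5, KCNV1 and KCNV2, each at 0 counts in every library.

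No inward rectifier passed, in either direction (1 at an unadjusted p under 0.05, and 0 called by DESeq2 and limma-voom). KCNJ2, which stabilizes the resting potential in muscle and other cells, had 1477 and 1461 counts in RB1 KO against 1257 and 1166 counts in wild-type libraries, or 45.0 and 43.9 against 37.8 and 36.6 CPM. The replicates lay close together and the groups apart, with a mean 1.19-fold higher in RB1 KO (log2 fold change 0.26, standard error 0.0774, adjusted p = 0.176). Its antisense neighbour KCNJ2-AS1 had 2.86 and 1.53 CPM in RB1 KO and 2.43 and 1.89 CPM in wild-type libraries. KCNJ8, the pore of an ATP-sensitive channel of vascular muscle, had 6.21 and 6.37 CPM in RB1 KO and 5.89 and 7.07 CPM in wild-type libraries. Its sulfonylurea receptor partner ABCC9 had 4.90 and 5.74 CPM in RB1 KO and 5.86 and 4.56 CPM in wild-type libraries, while the alternative pair of pancreatic beta cells, KCNJ11 and ABCC8, had 0 counts in all libraries. KCNJ12 had between 1 and 7 counts in a library. Where reads from near-identical copies of this gene were placed was not tested.

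Two-pore genes did not pass either (1 at an unadjusted p under 0.05, and 0 called by DESeq2 and limma-voom), and 3 of the 4 tested had negative values. KCNK2, a channel opened by membrane stretch, had 6.67 and 7.48 CPM in RB1 KO and 8.20 and 8.05 CPM in wild-type libraries (log2 fold change -0.20, adjusted p = 0.537). KCNK6 had 180 and 153 counts in RB1 KO against 213 and 239 counts in wild-type libraries, with both RB1 KO libraries lower (fold size 1.38, log2 fold change -0.46, standard error 0.165, adjusted p = 0.236). KCNK3, an acid-sensitive leak channel known from pulmonary artery muscle, had 3.38 and 1.95 CPM in RB1 KO and 2.31 and 5.03 CPM in wild-type libraries, with overlap. Its value was -0.90 and passed without RB1 KO replicate 1 (adjusted p = 0.0546) but was 0.20 without wild-type replicate 2. KCNK1, a weak leak channel, had 1.43 and 1.86 CPM in RB1 KO and 1.77 and 1.35 CPM in wild-type libraries. Of the 11 untested two-pore genes 5 had 0 counts in every library, KCNK9 and KCNK18 among them, and the highest total was 26 counts, for KCNK12.

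In the calcium-activated class, KCNMA1 of the large-conductance channel and 1 of its auxiliary subunits, KCNMB4, stood on opposite sides of 0. In edgeR neither passed, though both were at an unadjusted p under 0.05. KCNMA1, the pore of that channel, had 1323 and 1886 counts in RB1 KO against 1191 and 1060 counts in wild-type libraries, or 40.3 and 56.7 against 35.8 and 33.3 CPM. Both RB1 KO libraries were higher, with replicate 2 well above replicate 1 (log2 fold change 0.49, standard error 0.148, adjusted p = 0.176). DESeq2 called it higher (0.50, adjusted p = 0.0503). In edgeR its log2 fold change was 0.72 without RB1 KO replicate 1 and 0.22 without RB1 KO replicate 2. These fits hold 1 RB1 KO library and cannot measure the spread between the RB1 KO libraries. KCNMB4, the auxiliary subunit known from neurons, had 46 and 35 counts in RB1 KO against 87 and 60 counts in wild-type libraries (log2 fold change -0.88, standard error 0.283, adjusted p = 0.196). It passed without RB1 KO replicate 1 (-1.09, adjusted p = 0.0832). KCNMB3, the other auxiliary subunit gene tested in this class, had a log2 fold change of -0.35 (adjusted p = 0.824), with overlapping groups. KCNMB1, the subunit known from smooth muscle, had 1 count in all 4 libraries together.

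KCNT2, a sodium-activated channel, had 6.58 and 4.39 CPM in RB1 KO and 3.82 and 5.91 CPM in wild-type libraries. KCNN2, a small-conductance channel, had 1.04 and 1.53 CPM in RB1 KO and 1.5 and 1.04 CPM in wild-type libraries. The groups overlapped in both genes. KCNN4, the intermediate-conductance channel described in other fibroblasts and in lymphocytes, had 0 and 3 counts in RB1 KO and 2 and 0 counts in wild-type libraries.

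None of the 6 tested genes outside the 4 classes passed or had separate groups, and 0 were at an unadjusted p under 0.05 in edgeR or called by DESeq2 or limma-voom. KCNE4 had 28.3 and 22.2 CPM in RB1 KO and 26.1 and 31.7 CPM in wild-type libraries (log2 fold change -0.19, adjusted p = 0.561), and it passed at -0.38 without RB1 KO replicate 1 (adjusted p = 0.0973). KCNE3 and KCNE1, single-span partners of KCNQ1, had 2.62, 1.05, 1.17 and 2.17 CPM and 1.28, 0.691, 1.35 and 1.23 CPM in RB1 KO replicates 1 and 2 and wild-type replicates 1 and 2. KCNQ1 itself had 2 and 0 counts in RB1 KO and 1 and 3 counts in wild-type libraries. Its antisense RNA KCNQ1OT1, which silences neighbouring genes on the paternal chromosome, had 940 and 1034 counts in RB1 KO and 1118 and 1430 counts in wild-type libraries (log2 fold change -0.40, adjusted p = 0.217).

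The 9 tested members not described by sample were KCNS1, KCNS3, KCNQ3, KCNJ6, KCNJ14, KCNJ15, KCNMB3, KCNE5 and KCNIP2. Their means lay between 0.35 and 0.921 CPM, their log2 fold changes between -0.52 and 0.76, and their adjusted p between 0.542 and 0.928. The 34 genes that were counted but left out by the filter entered the edgeR fit without a filter, where 0 were called (lowest adjusted p = 0.501) and 1 was at an unadjusted p under 0.05, while DESeq2 gave none of them an adjusted p.

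Genes that act on potassium or beside its channels were read from 3 lists. Of 17 channel partners without a KCN symbol, 8 were tested and 0 passed in edgeR (median log2 fold change 0.18, against -0.01 over all genes), with DESeq2 and limma-voom also at 0. At an unadjusted p under 0.05, where 15.3% of all tested genes lay, it held 3 higher and 0 lower of the 8 genes, named after their values were seen: AMIGO1, a membrane partner of KCNB channels (0.61, adjusted p = 0.152), and the pacemaker channels HCN2 (0.83, adjusted p = 0.164) and HCN3 (0.71, adjusted p = 0.218). With either RB1 KO library left out, 1 gene of this list was called higher. TMEM38B, an intracellular cation channel, had 11.9 and 11.3 CPM in RB1 KO and 9.88 and 9.43 CPM in wild-type libraries. Of 24 potassium pump and cotransporter genes, 11 were tested, of which 1 was called higher and 1 lower, beside 1.99% higher and 0.907% lower over all tested genes. An unadjusted p under 0.05 was found for 3 of the 11 (15.3% of all tested genes), 2 with positive and 1 with negative values. ATP1B3, a beta subunit of the sodium-potassium pump, rose in edgeR, with 156 and 152 CPM in RB1 KO and 111 and 128 CPM in wild-type libraries (log2 fold change 0.37, adjusted p = 0.0878). It also passed in DESeq2 (adjusted p = 0.0184) and limma-voom (0.0888), but not with library totals (0.141), upper-quartile factors (0.109) or no filter (0.126), nor without wild-type replicate 1 (0.28, adjusted p = 0.327). FXYD6, a small regulator of that pump, passed as lower in edgeR, with 9 and 7 counts in RB1 KO and 25 and 28 counts in wild-type libraries (-1.74, adjusted p = 0.0932), and 9 genes did not pass. This call was not held by limma-voom (-1.70, adjusted p = 0.103), by no filter (-1.73, adjusted p = 0.126) or by any fit with a library left out: without RB1 KO replicates 1 and 2 it was at -1.93 and -1.56 (adjusted p = 0.119 and 0.176), and without wild-type replicates 1 and 2 at -1.84 and -1.62 (adjusted p = 0.245 and 0.238). DESeq2 gave it no adjusted p.

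The third list held 32 genes of voltage-gated calcium and sodium channels, their auxiliary subunits and the sodium leak channel NALCN. Of these, 17 were tested and 2 rose (median log2 fold change 0.31, against -0.01 over all genes), while the other 15 missed the threshold. Over all tested genes 1.99% were called higher. At an unadjusted p under 0.05, 6 of the 17 were higher and 2 lower (CACNB3 and NALCN), beside 15.3% of all tested genes in either direction. CACNA1A, the pore of the P/Q-type calcium channel, had 18.2 and 18.4 CPM in RB1 KO and 12.9 and 13.5 CPM in wild-type libraries (log2 fold change 0.47, adjusted p = 0.0741). CACNA2D1, an auxiliary calcium channel subunit, had 138 and 124 CPM in RB1 KO and 95.1 and 99.8 CPM in wild-type libraries (0.42, adjusted p = 0.0473). Both genes were higher in each RB1 KO library than in each wild-type library. CACNA1A did not pass with library totals (adjusted p = 0.107) or no filter (0.112). Without wild-type replicate 1, CACNA1A was at 0.44 (adjusted p = 0.243) and CACNA2D1 at 0.40 (adjusted p = 0.151), and 0 genes of the list were called higher, whereas without either RB1 KO library 4 were.

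Markers of the labelled cell type and of others were measured beside these values. All 10 fibroblast markers were tested, and their summed level was 52112 to 55789 CPM in RB1 KO and 42489 to 44168 CPM in wild-type libraries, with LUM called higher. Smooth muscle and pericyte markers, of which all 8 were tested, summed to 1178 to 1417 CPM in RB1 KO and 877 to 1152 CPM in wild-type libraries, where RGS5 rose (log2 fold change 1.38) and MYH11 (-0.85) and DES (-1.68) fell. Of 6 neuronal markers 3 were tested, with a sum of 19.6 to 20.7 CPM in RB1 KO and 23.5 to 24.7 CPM in wild-type libraries. SYT1 fell (-0.74) and STMN2 was at 0. Of 5 endothelial markers matched 3 were tested, with 157 to 182 CPM in RB1 KO and 121 to 124 CPM in wild-type libraries, nearly all of it TEK, which rose (0.47), while CDH5 was at 0. Of 8 epithelial markers 2 were tested, with 1.13 to 1.14 CPM in RB1 KO and 1.51 to 1.71 CPM in wild-type libraries, and CDH1, SFTPC and NKX2-1 were at 0. Of 6 immune markers 1 was tested, with at most 0.451 CPM in RB1 KO and 0.377 CPM in wild-type libraries. The part of any of these cells in the values of KCND3, KCNMB4 or KCNMA1 was not tested.

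RB1 acts through E2F factors, so the letters of E2F sites (TTTCCCGC, TTTGGCGC, TTTCGCGC or TTTGCCGC, on both strands) were looked up in RefSeq promoter windows on GRCh38.p14, from 250 bases before to 50 after the start. They occurred in 4 of 71 members with a window (5.63%), in KCNA6, KCNIP2, KCNK13 and KCNQ5, and in 2 of 30 tested members (6.67%). Of all tested protein-coding genes with a window, 553 of 10332 (5.35%) held them, and of all windows 3.33%. The window of KCND3 held none of these letters, which is a description of this window only.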

How the data were processed

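RNA-seq libraries of 2 RB1 KO and 2 wild-type IMR-90 samples were compared, grouped by the genotype in their labels. The authors depleted ribosomal RNA, built directional libraries and used STAR (2.7.2b, per the submitters' processing notes) for alignment to GRCh37, keeping reads with a single mapping place. The deposited table holds raw counts for each GENCODE v19 gene. Lines for spike-ins and read summaries were not part of library sizes. Between 13% and 15.6% of reads lay outside genes and 2.06% to 2.17% were ambiguous. Symbols and positions were taken from GENCODE mapped to GRCh37 in a newer release, by which 55538 rows were paired and 2282 were not.

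Counts were tested with edgeR 4.0.16 (R 4.3.3; TMM, filterByExpr with a minimum count of 10 and total of 15, glmQLFit, glmQLFTest) on all 4 libraries, without covariates, with Benjamini-Hochberg adjustment over all genes tested and calls at 0.1. The standard error of a log2 fold change is its absolute value over the square root of F. The biological coefficient of variation was 0.0867. Replicates correlated at 0.992 (RB1 KO) and 0.993 (wild-type) across genes in log2 CPM, and differed by more than sampling noise (chi-square per degree of freedom 17.5 and 18.9). Alternatives were DESeq2 1.42.0, limma-voom (limma 3.58.1), RLE or upper-quartile factors, library totals, a block for the replicate number, at least 10 counts in every library or no filter, a call at 0.05 and leaving out each library. A crossed block and the canonical transcript length were added after seeing the data. The filter search used coding sequence, not proteins. Tables and plots used Python 3.11.15, pandas 2.3.3 and matplotlib 3.10.9.

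Members are named by these rules: every called member, every tested member with a mean of at least 1 CPM, the 2 highest of each class, called genes of the partner lists (up to 4, or the 2 highest where none passed) and RB1. Members given otherwise were named after their values were seen, and some genes that the rules name are not reported here. Members, lists and rules were chosen with earlier results of these data known, so no list was tested as a set.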

Additional observations from a re-analysis of the deposited data

How the results depend on the processing

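Of 350 log2 fold changes of named members recomputed over the alternatives, 307 kept direction and side of the threshold, 22 turned sign, 19 newly passed and 2 no longer passed. Among 27 named members, 14 kept their sign in every alternative and 13 changed it in at least 1. KCND3 stayed positive throughout and, beside the left-out library named above, did not pass with the replicate block (1.39, adjusted p = 0.113).

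Members called higher (1 as reported) were 2 with DESeq2, 0 with the replicate block and 0 at an adjusted p under 0.05, and 0 to 3 with a library left out. Members called lower (0) were 1 with at least 10 counts in every library, with library totals and with upper-quartile factors, and 0 to 3 with a library left out. For voltage-gated genes these were 0 (replicate block, adjusted p under 0.05) and 0 to 2 (a library left out) higher, and 1 (at least 10 counts, library totals, upper-quartile factors) and 0 to 1 (a library left out) lower. For calcium-activated genes 1 was higher with DESeq2, and 0 to 1 were higher and 0 to 1 lower with a library left out, where their median ran from -0.14 to 0.44. Two-pore genes called lower ran from 0 to 1.

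Channel partners called higher ran from 0 to 1 with a library left out. Pumps called higher (1) were 0 with library totals, no filter, the replicate block, upper-quartile factors and an adjusted p under 0.05, and 0 to 1 with a library left out. Pumps called lower (1) were 0 with DESeq2, at least 10 counts, limma-voom, no filter, the replicate block and an adjusted p under 0.05, and 0 to 1 with a library left out. FXYD6 had no adjusted p in DESeq2 and was not tested with at least 10 counts. Calcium and sodium channels called higher (2) were 1 with library totals, no filter and an adjusted p under 0.05, 0 with the replicate block and 0 to 4 with a library left out, and those called lower (0) were 1 with library totals and 0 to 1 with a library left out.

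Signs turned for KCNAB2 (-0.029) and KCNN2 (-0.052) with library totals and for KCNN2 (-0.0091) with upper-quartile factors. With a library left out, log2 fold changes ran from -0.055 to 0.15 for KCNAB2, -0.38 to 0.24 for KCNAB3, -0.10 to 0.45 for KCND1, -0.66 to 0.66 for KCNE3, -0.058 to 0.59 for KCNG1, -0.13 to 0.078 for KCNH2, -0.44 to 0.21 for KCNIP3, -0.16 to 0.10 for KCNJ8, -0.13 to 0.30 for KCNK1, -0.90 to 0.20 for KCNK3, -0.29 to 0.32 for KCNN2, -0.47 to 0.76 for KCNQ5 and -0.14 to 0.52 for KCNT2.

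Over all genes, calls numbered 476 as reported, 226 with the replicate block, 222 at an adjusted p under 0.05 and 255 to 1431 with a library left out. With library totals 221 of 547 were higher, against 327 of 476 as reported. The replicate numbers mark no shared culture or day in the labels, and same-numbered libraries deviated with a correlation of -0.2. Crossing the numbers gave 2974 calls over all genes, with 4 members higher and 6 lower (voltage-gated 2 and 3, inward rectifier 1 and 0, two-pore 0 and 1, calcium-activated 1 and 1), channel partners 3 higher, pumps 3 and 2, and calcium and sodium channels 7 and 2. The cause of these differences was not tested. A single library left in a group was assumed to vary like the other group.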

Other observations

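Beside the protein-coding members, 25 noncoding rows carry a KCN symbol, 24 of them lncRNA genes, most named as antisense or intronic to a channel gene. Of these, 16 had 0 counts in all libraries and 3 were tested. KCNQ1OT1 had 28.6 and 31.1 CPM in RB1 KO and 33.6 and 44.9 CPM in wild-type libraries, and KCNJ2-AS1 a log2 fold change of 0.022 (adjusted p = 0.986). KCNJ5-AS1 had 1.46 and 1.53 CPM in RB1 KO and 1.23 and 1.67 CPM in wild-type libraries, while KCNJ5, the G-protein-gated channel gene on the other strand, had 2 and 4 counts in RB1 KO and 5 and 2 counts in wild-type libraries. KCNMA1-AS1 had 8 and 12 counts in RB1 KO and 8 and 3 counts in wild-type libraries, below 1% of the counts of KCNMA1. Of the 95 members, 51 have an annotated gene on the opposite strand.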
